A study of Homo sapiens with 414 samples.

Results

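The retinoid libraries of this human cell culture screen were those treated with all-trans retinoic acid, named (trans) Retinoic acid in the labels, or with its stereoisomer isotretinoin, named Accutane or Isotretinoin. They were chosen by compound and day from the labels: the 5 libraries of each compound on days 1, 2, 3, 4 and 6, 10 of the 414 libraries in the series. The cells were H1-NPC, neural progenitors that the labels and title place as derived from human pluripotent stem cells, so all results describe 1 cell line. They were expanded with FGF2, a growth factor that sustains neural progenitors, then seeded into 48-well plates in medium for which no FGF2 is listed. Treatment began on the day of seeding (day 0) and ran until lysis. All-trans retinoic acid was given at 1.7 µM and isotretinoin at 0.5 µg/ml, which is 1.66 µM by its molar mass, a ratio of 0.98. Both carry the label toxic. The comparison group was the 79 libraries of the 16 compounds labelled non-toxic on the same days, DMSO at 0.1% among them, with 16 libraries on each of days 1 to 4 and 15 on day 6. Each compound had a single library per day. In the titles, for example those of days 1 and 2, retinoid libraries carry the mark Hi and non-toxic libraries the mark C. The labels do not explain these marks. Other compounds labelled toxic carry the mark Hi as well, and their libraries were not used here. In the comparison with the non-toxic libraries, a retinoid difference and a difference between the marked series cannot be told apart. The labels do not say whether the wells came from separate cultures, so the p-values measure the spread between these libraries, which may be technical.

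Levels are given in TPM, transcript abundances that are corrected for transcript length and scaled to the same sum in each library. The reads behind a TPM are unknown, a 0 may be a failed estimate, and no depth-based interval could be given. Differences are on the log2(TPM + 1) scale, which understates changes of genes with low levels, and ± is the standard error from limma. A gene rose or fell where its Benjamini-Hochberg adjusted p from limma over 16318 tested genes was under 0.05. Genes at 1 TPM or more numbered 13321 to 13717 in the all-trans libraries, 13350 to 13599 in the isotretinoin libraries and 13267 to 13546 in the non-toxic libraries. Set against the non-toxic libraries of the same day, 8 of the 10 retinoid libraries lay outside the range in that number, below it on day 1 and above it later, most so the all-trans library of day 4 at 13717 against 13314 to 13406. The share of TPM in the 50 most abundant genes lay outside the range of the day in 5 of the 10 and the median deviation over genes at 10 TPM or more in 4 of the 10, below it on days 1 and 4. The slope of that deviation against transcript length (GENCODE release 29, found for 93.0% of these genes), a sign of RNA or library quality, lay outside in 6 of the 10. The part of these measures in the results was not tested. In bulk RNA of this kind, fewer cells of a type and less RNA per cell cannot be told apart.

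Retinoic acid enters the nucleus and binds the receptors RARA, RARB and RARG, which pair with the retinoid X receptors on DNA and switch on genes that hold a retinoic acid response element, commonly a direct repeat of a short hexamer. Among the known direct targets are RARB itself, enzymes of the CYP26 family that break retinoic acid down, DHRS3, which returns retinaldehyde to retinol, and the early HOX genes, whose order along a cluster matches their order along the body axis. In the developing neural tube retinoic acid gives cells a hindbrain and spinal cord address and favours differentiation. Isotretinoin differs from all-trans retinoic acid in the geometry of the double bond nearest the acid group, which is cis in isotretinoin and trans in the other, and it is a known human teratogen.

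Promoter sequences from RefSeq (GRCh38.p14, 250 bases before to 50 after each annotated start) were searched on both strands for the DR5 element, a direct repeat with a gap of 5 bases of the hexamer AGGTCA, which retinoic acid receptors bind and in which the first A may be G and the second G may be T. The motif was in 31 of 35116 windows, 0.0883%. Counted by gene, it was in 11 of the 11783 tested genes with a window (0.0934%). It was in 2 of the 47 matched genes of the retinoic acid and HOX lists, RARB and CYP26A1. The stretches around both matches are printed because these genes behaved differently over the first day. RARB already differed from the non-toxic libraries by at least 1 on day 1. CYP26A1 was abundant in both groups that day and did not differ by that much. The pair was chosen after its values were seen. Capitals mark the repeat, which begins 53 bases before the RARB start on the plus strand (chr3:25428113-25428262, plus strand) and 90 bases before the CYP26A1 start, where it reads on the minus strand (chr10:93073743-93073892, plus strand).
RARB: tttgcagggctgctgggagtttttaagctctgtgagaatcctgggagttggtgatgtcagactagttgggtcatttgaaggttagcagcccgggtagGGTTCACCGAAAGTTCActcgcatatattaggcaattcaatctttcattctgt
CYP26A1: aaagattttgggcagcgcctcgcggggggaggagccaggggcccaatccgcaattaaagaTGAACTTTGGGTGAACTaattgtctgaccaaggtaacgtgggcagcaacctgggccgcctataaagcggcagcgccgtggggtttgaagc

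One of 4 windows annotated for RARB and 1 of 2 for CYP26A1 held the repeat. Of the 54 genes with a window that were higher from day 1 on, 1 held it (1.85%), which was RARB itself. Repeats with gaps of 2 bases (0.0399% of windows) or 1 base (0.131%) were in no window of the retinoic acid or HOX lists. A match describes letters in the window and does not show binding.

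The 3 genes given as marks of retinoid exposure were high from the first day. RARB, a retinoic acid receptor and itself a classic target, stood at 89.1, 114, 119, 121 and 134 TPM on days 1, 2, 3, 4 and 6 under all-trans retinoic acid and at 60.5, 90.7, 105, 103 and 99.5 TPM under isotretinoin. The 79 non-toxic libraries lay between 1.9 and 4.47 TPM (daily medians 2.75 to 3.58 TPM). Both compounds are compared with the same non-toxic libraries, so their values stand side by side and are not independent. The RARB groups did not overlap on any day, and the differences were 4.80 ± 0.10 (adjusted p = 7.1e-59) and 4.45 ± 0.10 (adjusted p = 2.4e-55). DHRS3, the retinaldehyde reductase, read 431, 583, 689, 689 and 659.8 TPM under all-trans retinoic acid and 395, 472, 577, 549 and 585 TPM under isotretinoin. The non-toxic libraries lay between 7.91 and 22.9 TPM (daily medians 9.57 to 17.7 TPM). Its difference was 5.31 ± 0.07 for all-trans retinoic acid (adjusted p = 1.2e-72) and 5.08 ± 0.07 for isotretinoin (adjusted p = 1.0e-70). HOXB5, a homeobox factor of the hindbrain and spinal cord, was at 181, 725, 931, 859.5 and 620.5 TPM and 95.8, 642, 979.6, 925 and 678 TPM in the same order of compounds and days. The non-toxic libraries lay between 0 and 0.23 TPM. For all 3 genes each retinoid library lay above every non-toxic library of its day.

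Of the 6 retinoic acid and retinoid X receptor genes, 5 rose and none fell under either compound in the average over the 5 days. Of all tested genes, 20.0% rose under all-trans retinoic acid and 16.4% under isotretinoin. On day 1 alone, 3 of the 6 receptor genes rose and 1 fell, where 10.3% of all genes rose and 18.9% fell. RARA, the most abundant of them, climbed from 104 and 95.2 TPM on day 1 under all-trans retinoic acid and isotretinoin to 260.4 and 210.1 TPM on day 4. It then stood at 182 and 187 TPM on day 6. Non-toxic libraries held 17.2 to 21.5 TPM (median 19.3) on day 1 and 27.6 to 37.4 TPM (median 33.7) on day 6, and the average differences were 2.77 ± 0.06 and 2.58 ± 0.06. RARG rose by less, 0.95 ± 0.12 and 0.86 ± 0.12, and did not keep a difference of 1 from any day on. RXRG, a retinoid X receptor with restricted expression, was at 2.59 and 2.72 TPM on day 1 against 0 to 0.72 TPM (median 0.37), a difference of 1.45 ± 0.22. On day 6 the groups overlapped, at 1.03 and 1.28 TPM against 0.3 to 1.58 TPM (median 0.77), a difference of 0.25 ± 0.22, and the change between the days passed (adjusted p = 0.0011). RXRA rose by 0.34 ± 0.05 and 0.24 ± 0.05, and RXRB, at -0.05 ± 0.03 and -0.01 ± 0.03, did not pass.

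The enzymes that break down or store retinoids split in direction: 3 of 5 rose and 2 fell under both compounds, where 21.9% of all genes fell under all-trans retinoic acid and 22% under isotretinoin. Besides DHRS3, CYP26B1 rose, a hydroxylase that clears retinoic acid. Its all-trans values of 39.7, 96.7, 150.4, 211 and 265 TPM and isotretinoin values of 30.4, 64, 110.2, 124 and 145 TPM climbed every day. They lay above the non-toxic libraries of the same day throughout (8.6 to 13 TPM (median 11) on day 1 and 70.7 to 92.8 TPM (median 84.9) on day 6). The non-toxic libraries thus climbed as well. From day 1 to day 6 the difference grew in 0 of the 5 enzymes of this list. Its downward change passed in 2 of them, where 13% of all genes changed downward. LRAT, which esterifies retinol for storage, reached 12 and 9.96 TPM on day 2 against 0.34 to 1.36 TPM (median 0.865) and was at 4.45 and 3.8 TPM on day 6 against 1.23 to 2.54 TPM (median 1.51). It was above all non-toxic libraries on each day, but its difference on day 6 was 0.98 ± 0.15 after 2.70 ± 0.15 on day 2. CYP26A1, the hydroxylase most often used as a mark of retinoic acid, ran the other way. On day 1 it stood at 633 and 582 TPM against 573 to 629.8 TPM (median 582) in the non-toxic libraries. It was at 501 and 431 TPM against 563 to 631 TPM (median 585) on day 2 and at 259 and 150.1 TPM against 267 to 319 TPM (median 294) on day 6, having declined in both groups. All retinoid libraries of days 2 to 6 were below every non-toxic library of their day, and the averages over days were -0.28 ± 0.04 and -0.56 ± 0.04. CYP26C1, the third hydroxylase of the family, was below every non-toxic library from day 1, at 25.1, 24.3, 26.1, 17.3 and 7.35 TPM under all-trans retinoic acid and 47.3, 38.3, 30.7, 26.4 and 10.5 TPM under isotretinoin. The non-toxic range was 60.8 to 82.4 TPM (median 76.1) on day 1 and 44 to 69.5 TPM (median 55.6) on day 6 (-1.74 ± 0.09 and -1.18 ± 0.09).

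Among 9 genes for uptake, synthesis and binding of retinoids, 4 rose and 3 fell under all-trans retinoic acid (20.0% and 21.9% of all tested genes), and 4 rose and 1 fell under isotretinoin (16.4% and 22% of all). CRABP1, which binds retinoic acid in the cytoplasm, was abundant in all libraries and rose by 0.45 ± 0.04 and 0.83 ± 0.05, with 1121 and 1127 TPM against 730.3 to 844 TPM (median 771) on day 1 and 603 and 830.4 TPM against 493 to 623 TPM (median 559.8) on day 6. CRABP2, which carries retinoic acid to its receptors, rose by 0.95 ± 0.11 and 0.34 ± 0.09 and was highest in the all-trans library of day 3, 70 and 26.4 TPM against 13.7 to 26 TPM (median 18.5). STRA6, the retinol-uptake receptor, rose by 0.94 ± 0.14 and 0.61 ± 0.14. RDH10, which makes retinaldehyde from retinol, fell by 0.42 ± 0.07 and 0.25 ± 0.08. The 3 retinaldehyde dehydrogenases ALDH1A1, ALDH1A2 and ALDH1A3, which make retinoic acid, stayed under 1 TPM in the retinoid libraries.

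**Figure D1:**
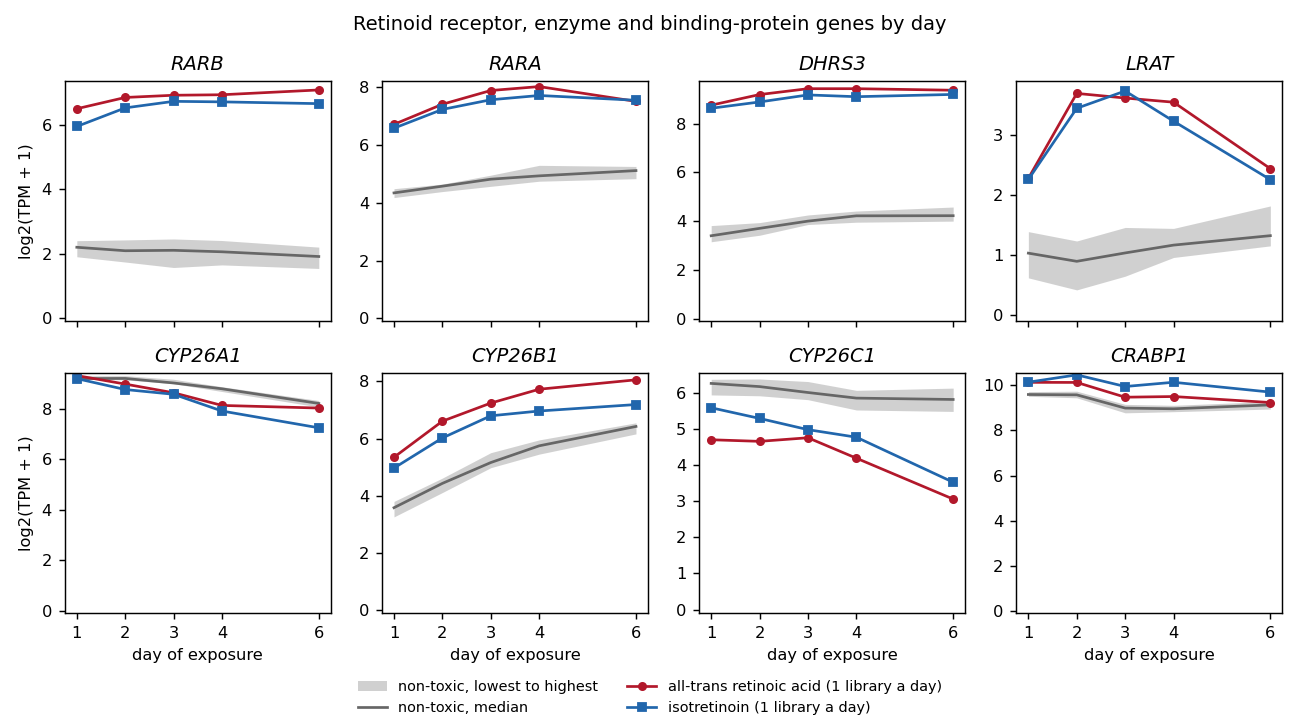
Levels of 8 retinoic acid pathway genes, log2(TPM + 1), against day of exposure (1 to 6). Red circles are the all-trans libraries and blue squares the isotretinoin libraries, 1 per day, the grey line is the median of the 15 or 16 non-toxic libraries of a day and the grey band runs from their lowest to their highest. RARB, RARA, DHRS3 and LRAT lie above the band on every day, CYP26C1 lies below it, and CYP26A1 leaves the band downward after day 1.

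Of 15 other known retinoic acid targets, 14 were tested, and 7 rose and 2 fell under each compound, where 20.0% and 16.4% of all genes rose and 21.9% and 22% fell. TSHZ1, a zinc finger factor of trunk patterning, was at 39.7, 112, 154, 172 and 155 TPM under all-trans retinoic acid and 28.6, 86.2, 124, 149 and 142 TPM under isotretinoin, and between 5.36 and 11.2 TPM in the non-toxic libraries. ZNF703, a transcriptional repressor, overlapped the non-toxic libraries on day 1 at 5.49 and 5.6 TPM against 2.96 to 5.89 TPM (median 4.54) and was at 28.7 and 26.1 TPM on day 6 against 1.61 to 5.22 TPM (median 3.06). NRIP1, a corepressor of nuclear receptors, was above all non-toxic libraries on each day at 31.5, 28.8, 30.3, 25.5 and 34.1 TPM and 29.6, 29.1, 26.3, 25.9 and 25.3 TPM with little change over days (0.06 ± 0.10 from day 1 to day 6, adjusted p = 0.72). NR2F1, an orphan nuclear receptor, rose by 1.05 ± 0.07 and 0.84 ± 0.07, and its relative NR2F2 fell by 0.18 ± 0.04 and 0.24 ± 0.04. The caudal factors stayed low, with CDX2 listed at 0 in all retinoid libraries. HOX cofactors, proteins that bind DNA with HOX factors, rose in 7 of 9 cases and fell in 1 under each compound, with median differences of 0.65 and 0.62 where the medians over all tested genes were -0.00 and -0.01. MEIS2, a partner of HOX and PBX proteins, had the largest difference, with 126.5 and 95.5 TPM on day 1 and 183 and 184 TPM on day 6 against 15.6 to 21.7 TPM (median 18.2) and 6.4 to 10.6 TPM (median 9.23). PBX3 was the member that fell, at 323 and 308 TPM on day 6 against 529 to 592 TPM (median 561) (difference that day -0.82 ± 0.03).

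HOX genes were gained. Of 39 listed, 25 were tested and 19 reached 5 TPM in a retinoid library, whereas HOXB2 was the single member at 1 TPM or more in any non-toxic library. Without the retinoid libraries, 0 of 7 tested HOXA genes, 7 of 9 HOXB, 0 of 4 HOXC and 4 of 5 HOXD would have passed the filter on low levels. Counts of HOX genes that differ therefore carry no weight, and levels are given instead. With control values at or near 0, the fitted differences depend on the pseudocount and no fold is stated. On day 1 the highest HOX levels were those of HOXB5 and HOXB8 in the HOXB cluster, with lower levels for HOXB6 and HOXB7 between them. HOXB5 stood at 181 and 95.8 TPM under all-trans retinoic acid and isotretinoin and HOXB8 at 114 and 58.8 TPM. Levels were lower for the rest: 23.8 and 8.97 TPM for HOXB6, 16.5 and 12.9 TPM for HOXB2, 14.4 and 6.68 TPM for HOXB3, 13.5 and 11.1 TPM for HOXB4, 7.41 and 1.8 TPM for HOXB7 and 5.11 and 1.41 TPM for HOXB9. HOXB1, at the end of the cluster that opens first in embryos, was at 3.36 and 0 TPM and never passed 5 TPM, with values of 3.36, 1.39, 4.55, 0.44 and 0.58 TPM under all-trans retinoic acid. All other HOX genes were under 1 TPM on day 1.

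HOXB5 levelled off first. It was at 181, 725, 931, 859.5 and 620.5 TPM under all-trans retinoic acid and 95.8, 642, 979.6, 925 and 678 TPM under isotretinoin, highest on day 3 under both, and its difference shrank from day 4 to day 6 (-0.48 ± 0.10, adjusted p = 1.9e-04). HOXB4 and HOXB6 peaked on day 4, HOXB6 at 820.2 and 802 TPM, HOXB4 at 355 and 299.6 TPM. HOXB8 went on climbing, 114, 479, 930.3, 1529 and 2236 TPM and 58.8, 412, 819, 1418 and 2173 TPM, and on day 6 had the highest level of any HOX gene. HOXB9, the gene of the cluster nearest its late end among those seen, followed with 5.11, 47.1, 159.6, 456 and 1200.0 TPM under all-trans retinoic acid and 1.41, 19.2, 83.2, 288 and 837 TPM under isotretinoin. Its difference grew by 8.04 ± 0.19 from day 1 to day 6 (adjusted p = 1.4e-54), the largest growth among genes named by the rule for change over days. That of HOXB5 grew by 2.27 ± 0.10, HOXB8 by 4.73 ± 0.09, HOXB2 by 5.81 ± 0.33 and HOXB3 by 5.90 ± 0.17.

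In the other clusters, genes that reached 1 TPM did so a day or more later. Some HOXA and HOXD genes had already risen on day 1 at levels under 1 TPM. HOXA5 went from 0.58 and 0.74 TPM on day 1 to 18.4 and 6.81 TPM on day 2 and 77.2 and 52.8 TPM on day 3. It reached 213 and 184 TPM on day 4 and 399 and 364 TPM on day 6, and all non-toxic libraries of days 1 and 6 were listed at 0. HOXC4 was listed at 0 in both retinoid libraries of day 1, then at 11.7 and 6.23 TPM, 65 and 37.2 TPM, 138 and 100.2 TPM and 199.6 and 165 TPM on days 2, 3, 4 and 6. The neighbours of HOXA5 appeared on different days. HOXA3 and HOXA4 were at 2.81 and 1.33 TPM and at 1.87 and 1.5 TPM on day 2, whereas HOXA6 and HOXA7 were listed at 0 on that day and read 38.9 and 29.2 TPM and 28.2 and 34.2 TPM on day 6. HOXA2 reached 17.1 and 21.8 TPM on day 6. HOXC5 reached 36.1 and 28.4 TPM, while HOXC6 was listed at 0 in both libraries of day 6 and HOXC8 was at 0.5 and 0.46 TPM. In the HOXD cluster HOXD3 was at 6.51 and 7.67 TPM and HOXD4 peaked on day 3 at 7.46 and 9.56 TPM, and HOXD1, HOXD8 and HOXD9 were under 1 TPM on day 6. On day 6 the HOX transcripts thus ran to paralogue 9 in HOXB, 7 in HOXA, 5 in HOXC and 4 in HOXD at the level of 1 TPM.

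**Figure D2:**
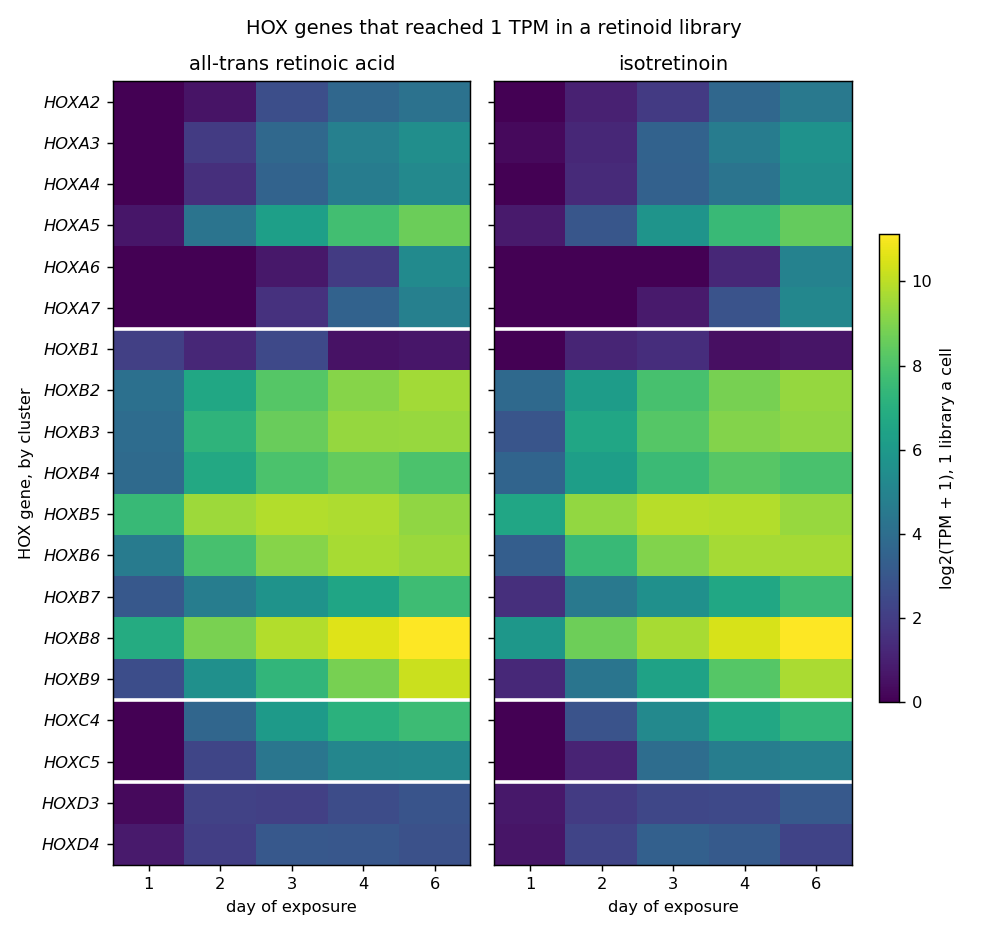
Heat map of 19 of the 20 HOX genes that reached 1 TPM in a retinoid library (rows, grouped by cluster) in the 10 retinoid libraries (columns, both isomers on days 1, 2, 3, 4 and 6), colour giving log2(TPM + 1). HOXB5 and HOXB8 are already coloured on day 1, HOXA and HOXC genes fill in from day 2 on, and HOXB8 and HOXB9 are strongest on day 6.

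For the order of onset, both retinoids stood as the 2 libraries of a day in 1 fit per day, and a gene's onset was the first day from which it passed on that and every later day with a difference of at least 1 in the same direction. The number of genes passing with such a difference was 282 on day 1 (1.73% of tested genes), 473 on day 2 (2.90%), 645 on day 3 (3.95%), 784 on day 4 (4.80%) and 944 on day 6 (5.79%). Onset on day 1 was found for 89 higher (0.545%) and 54 lower genes (0.331%) and on day 2 for 87 (0.533%) and 45 (0.276%). It fell on day 3 for 80 (0.490%) and 68 (0.417%), on day 4 for 102 (0.625%) and 71 (0.435%), and on day 6, the last day, for 194 (1.19%) and 154 (0.944%). A further 112 higher (0.686%) and 110 lower genes (0.674%) passed on day 1 or 2 and no longer on day 6; with the all-trans libraries alone the transient lower genes numbered 185. Tested directly, the difference changed from day 1 to day 6 for 5357 genes, upward for 3235 (19.8%) and downward for 2122 (13%). The step from day 2 to day 3 changed 837 genes (5.13%), fewer than the steps before it (1534, 9.40%) and after it (2107, 12.9%). The counts of onset use a threshold, and a gene such as NRIP1, above every non-toxic library from day 1 but under a difference of 1 on days 3 and 4, counts as an onset on day 6. An onset on day 1 needs a pass on all 5 days, one on day 6 a pass on that day alone, and the days skip day 5. The size of the day 6 classes depends on this rule. With onset at 50 percent of the day 6 difference, 93 higher and 51 lower genes fell on day 6, and 109 lower genes on day 1.

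**Figure D3:**
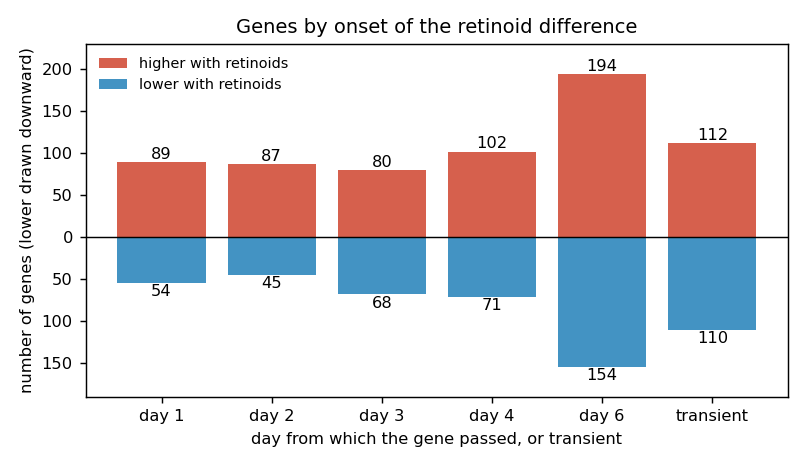
Number of genes by day of onset (x axis: days 1, 2, 3, 4 and 6, and the transient genes), with genes higher in the retinoid libraries as bars above 0 and lower genes below it, counts printed on the bars. The largest classes under this rule are those of day 6, with 194 higher and 154 lower genes. An onset on day 6 needs a pass on that day alone.

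Beside RARB, DHRS3 and the HOXB genes, the genes that rose most from day 1 on included FAM101A, an actin-organising protein, at 74 and 61.5 TPM on day 1 against 0 to 3.03 TPM (median 0.765), and it then declined to 8.34 and 17.6 TPM on day 6. CFI, a complement protease, went the other way, from 32.7 and 21.7 TPM against 0 to 0.69 TPM (median 0.32) to 103 and 59.6 TPM on day 6 against 0 to 0.77 TPM (median 0). PRDM12, a zinc finger factor of the spinal cord and sensory neurons, was at 26, 97.8, 168, 271 and 152 TPM under all-trans retinoic acid and 11.7, 51, 92.8, 174 and 123 TPM under isotretinoin. The non-toxic libraries lay between 0 and 1.34 TPM (6.30 ± 0.18 and 5.54 ± 0.20). LBX1, a homeobox factor of dorsal spinal interneurons, read 5.64 and 2.19 TPM on day 1 against 0 to 0.19 TPM (median 0) and reached 212 and 170.2 TPM on day 6, where the non-toxic libraries held 0 to 1.09 TPM (median 0.5). For these 4 genes every retinoid library lay above all non-toxic libraries of its day. Spinal and hindbrain interneuron factors did not rise as a group. Of 18 tested, 3 rose and 8 fell on day 1 (10.3% and 18.9% of all genes). On day 6 there were 5 that rose and 6 that fell (19.8% and 18.5% of all).

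Genes with an onset on day 2 missed the threshold on day 1. PROX1, a homeobox factor of differentiating neural cells, read 5.72 and 4.73 TPM on day 1 against 2.51 to 5.07 TPM (median 3.35). It then read 20.5 and 18.8 TPM on day 2 against 2.02 to 4.4 TPM (median 3.07) and 52.3 and 56.2 TPM on day 6. GLRA1, a glycine receptor subunit, went from 1.33 and 0.78 TPM on day 1 to 6.67 and 6.01 TPM on day 2 and 12.6 and 11.8 TPM on day 6, and the non-toxic libraries stayed between 0 and 0.45 TPM. DOC2B, a calcium sensor of vesicle release, stood at 9.15 and 10.1 TPM on day 2 against 0.3 to 1.83 TPM (median 1.23). On day 3 the onset set included FRZB, a secreted WNT antagonist, which fell on day 1 (23.4 and 15.3 TPM against 21 to 28.1 TPM (median 25.4)) and was at 58.3 and 56 TPM on day 3 against 12.3 to 16.7 TPM (median 14.2). HPCA, a neuronal calcium sensor, was at 16.2 and 6.28 TPM on day 3 against 0.86 to 3.27 TPM (median 1.85) and at 46.9 and 39.2 TPM on day 6. PAX2, a paired-box factor of hindbrain and spinal interneurons, was within the non-toxic range on day 1 and moved to 14.3 and 20.4 TPM on day 4 and 53 and 74.9 TPM on day 6 against 0.86 to 3.59 TPM (median 1.97).

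Onset on day 4 brought further transcription factors and signalling genes. SALL3, a zinc finger factor, went from 0.43 and 0.68 TPM on day 1 to 15.6 and 14.9 TPM on day 4 against 1.23 to 2.82 TPM (median 2.1) and 29.7 and 37.4 TPM on day 6. LGR5, a receptor that enhances WNT signalling, stood at 11.3 and 12 TPM on day 4 against 0.82 to 2.74 TPM (median 1.54). PAX8, the relative of PAX2, was listed near 0 until day 3 and read 2.02 and 2.49 TPM on day 4 and 24.2 and 29.5 TPM on day 6 against 0 to 0.23 TPM (median 0). The genes first counted on day 6 included SLC6A5, the glycine transporter of inhibitory neurons. It stood at 1.06 and 1.38 TPM on day 4 and 17.1 and 19.4 TPM on day 6 against 0 to 1.11 TPM (median 0.42). SOSTDC1, a secreted BMP and WNT antagonist, was at 13.5 and 8.53 TPM against 0 to 1.07 TPM (median 0.3). OLFM1, a secreted neuronal glycoprotein, reached 1025 and 618 TPM on day 6 against 168 to 197 TPM (median 179.8). On day 1 it had been at 72 and 77.9 TPM against 69.8 to 90.9 TPM (median 80.1).

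Several of the largest falls were in genes whose level climbed over the days in the non-toxic libraries and did not in the retinoid libraries. SIX2, a homeobox factor, climbed in the non-toxic libraries from 0.74 to 2.51 TPM (median 1.34) on day 1 to 97.6 to 132 TPM (median 112) on day 6 and stayed under 1 TPM in all 10 retinoid libraries (-4.22 ± 0.24 and -4.07 ± 0.26). DMBX1, a homeobox factor of the midbrain, behaved likewise, with 7.27 to 11.8 TPM (median 10.2) on day 1 and 73.5 to 95.9 TPM (median 84.1) on day 6 in the non-toxic libraries against 0.76 and 2.87 TPM and 0.62 and 0.92 TPM. GAD1, the enzyme that makes GABA, went to 80 to 106 TPM (median 98.6) in the non-toxic libraries of day 6 and stood at 1.15 and 3.03 TPM in the retinoid libraries. EPHA5, an ephrin receptor of growing axons, was at 3.92 and 3.35 TPM against 52.9 to 66.6 TPM (median 60). Other genes were lost from a level already present. OLIG1 and OLIG3, basic helix-loop-helix factors of progenitor domains, were at 9.42 and 10.1 TPM and at 4.35 and 9.28 TPM on day 1. They were at 0 and 0.7 TPM and at 0.52 and 0 TPM on day 6 against 17.4 to 32.8 TPM (median 25.8) and 50.8 to 75.7 TPM (median 62.9). DLK1, a NOTCH-family ligand, went from 92.8 and 125 TPM to 2.9 and 4.02 TPM against 197 to 237 TPM (median 225) and 45 to 64.4 TPM (median 51). PMP22, a membrane protein of myelin, went from 67.5 and 82.1 TPM to 17.2 and 16.3 TPM against 215 to 274 TPM (median 256) and 157 to 199 TPM (median 188).

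By day of onset, the fastest falls were those of LMO1, a LIM-domain partner of transcription factors (1.14 and 3.04 TPM on day 1 against 13.9 to 21 TPM (median 16.9)) and of SLC17A8, a vesicular glutamate transporter (13.4 and 25.4 TPM against 91.5 to 111 TPM (median 102)). LHX5, a LIM homeobox factor, and FGFBP3, which binds FGFs, passed from day 2. They stood at 19.2 and 23 TPM against 66.9 to 82.3 TPM (median 75) and at 58.9 and 76.1 TPM against 193 to 225 TPM (median 216). SLC17A6, the vesicular glutamate transporter of many brainstem and spinal neurons, passed from day 3 (8.27 and 13.1 TPM against 30.3 to 38.7 TPM (median 34.7)). CA8, a carbonic anhydrase-related protein of Purkinje cells, passed from day 4 (1.15 and 1.11 TPM against 6.48 to 10.2 TPM (median 7.24)). CALB2, the calcium buffer calretinin, was within or above the non-toxic range until day 4 in the all-trans libraries and stood at 35.7 and 20 TPM on day 6 against 125.5 to 158 TPM (median 143).

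Some early responses faded. NOS1, the neuronal nitric oxide synthase, was at 11.6 and 10.9 TPM on day 1 against 0.31 to 0.82 TPM (median 0.605) and at 1.61 and 1.06 TPM on day 6 against 0.26 to 0.94 TPM (median 0.58), a change of -2.39 ± 0.14 (adjusted p = 2.4e-26). TGFBI, a secreted matrix protein, went from 77.8 and 70.2 TPM to 9.56 and 6.4 TPM, inside the non-toxic range of day 6, 5.18 to 10.5 TPM (median 8.53). CXCR7, a chemokine-scavenging receptor, peaked on day 2 at 112 and 75.8 TPM and was at 38.7 and 45.5 TPM on day 6 against 17.5 to 26.2 TPM (median 23), so it remained above all non-toxic libraries with a smaller difference. NPY, a neuropeptide, went from 11.6 and 11.1 TPM to 2.15 and 0 TPM. Among the genes lower at first, NR4A2, an orphan nuclear receptor of dopamine neurons, stood at 0.54 and 0.88 TPM on day 1 against 4.28 to 7.82 TPM (median 6.08) and at 12.2 and 24.2 TPM on day 6 against 19.1 to 22.6 TPM (median 21.1). GDF10, a BMP-family ligand, dipped on days 2 to 4 (2.84 and 4.62 TPM on day 3 against 13.6 to 21.7 TPM (median 16.5)) and was back at 11.8 and 9.58 TPM on day 6 against 8.62 to 15.4 TPM (median 10.7).

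Proliferation genes changed side during the week. Of 14 genes of G2 phase and mitosis, 14 rose on day 1 (median difference 0.44), where 10.3% of all genes rose that day and the median of all was -0.04. On day 2 again 14 rose (14% of all genes), on day 3 there were 9 that rose (14.4% of all), on day 4 there were 12 that fell (21.3% of all) and on day 6 there were 13 that fell (median -0.33; 18.5% of all). Of 14 S phase genes, 12 rose on day 1 (median 0.24) and 14 fell on each of days 4 and 6 (median -0.29 on day 6). The change from day 1 to day 6 was downward and passed for all 14 genes in each list, where 13% of all genes changed downward. The medians were -0.76 for G2 and mitosis and -0.55 for S phase against 0.04 over all tested genes. TOP2A, the topoisomerase of dividing cells, was at 559 and 539.7 TPM on day 1 against 353 to 372 TPM (median 364) and at 153 and 145 TPM on day 6 against 171 to 209 TPM (median 186), without overlap on either day. MKI67, the Ki-67 antigen, went from 234 and 244 TPM against 172 to 194 TPM (median 179.9) to 62.9 and 66.4 TPM against 70.6 to 85.5 TPM (median 77.5). GINS2, a subunit of the replicative helicase, changed by -1.08 ± 0.09 between day 1 and day 6, from 225 and 231 TPM against 163 to 202 TPM (median 183) to 39.4 and 39.6 TPM against 57.7 to 75.8 TPM (median 69).

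Neuronal genes moved in the opposite order. Of 13, 12 fell on day 1 (18.9% of all genes fell; median -0.35), and on day 6 10 rose and 2 fell (median 0.30), where 19.8% of all genes rose. From day 1 to day 6 the difference changed upward for 11 and downward for 1 (median 0.48), where 19.8% of all genes changed upward and 13% downward. The length slope of the libraries was also lower on day 1 than on day 6: it was -0.043 and -0.040 per log2 of length against -0.027 to 0.019 in the non-toxic libraries on day 1, -0.041 and -0.031 against -0.026 to 0.022 on day 4, and 0.031 and 0.0007 against -0.025 to 0.030 on day 6. Its part in these changes and in those of the proliferation genes was not tested. NEFL, the light neurofilament, showed this most among the named examples: it was at 71 and 70.2 TPM on day 1 against 93.5 to 107 TPM (median 102) and at 370.2 and 344 TPM on day 6 against 62 to 78.5 TPM (median 67.3), a change of 2.88 ± 0.09 (adjusted p = 2.9e-46). NEFM, the medium neurofilament, was at 511 and 519 TPM on day 6 against 139.7 to 162 TPM (median 151), and RBFOX3, the neuronal splicing factor NeuN, at 31.1 and 29.6 TPM against 2.84 to 5.71 TPM (median 4.09). GAP43, a growth cone protein, was an exception and fell on average, by 0.94 ± 0.04 and 0.70 ± 0.04. Neural progenitor genes were mostly lower: of 13, 2 rose and 10 fell under each compound (medians -0.38 and -0.27). The shares of all genes that rose and fell were 20.0% and 21.9% under all-trans retinoic acid and 16.4% and 22% under isotretinoin. NES, the intermediate filament nestin, was at 587 and 659.9 TPM on day 6 against 922 to 1025 TPM (median 962), and FABP7, a fatty acid-binding protein of radial glia, fell by 2.21 ± 0.06 and 1.73 ± 0.06. HES1, a NOTCH effector, rose by 2.01 ± 0.13 and 1.66 ± 0.12 and stood at 62.8 and 49 TPM on day 6 against 7.89 to 13.1 TPM (median 10.5). SOX2, the factor that keeps progenitors, was below the non-toxic median on day 1 (221 and 240.0 TPM against 274 to 309.9 TPM (median 289)) and above it on day 6 (182 and 207 TPM against 156 to 183 TPM (median 174)).

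**Figure D4:**
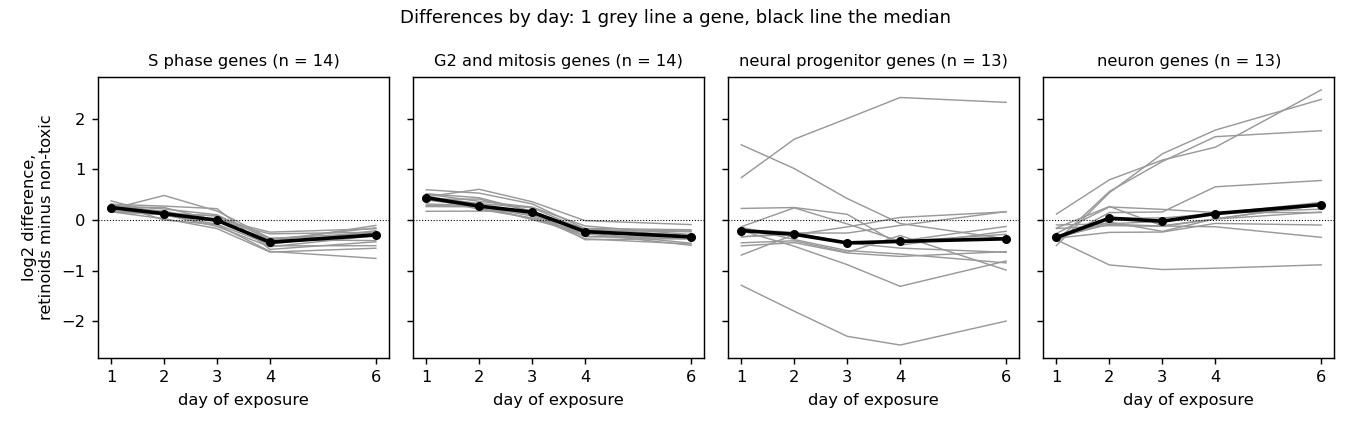
Difference between the retinoid and the non-toxic libraries, log2(TPM + 1), against day, 1 thin line per gene and the median in black, for S phase genes (14), G2 and mitosis genes (14), neural progenitor genes (13) and neuron genes (13). The proliferation medians cross 0 between days 2 and 4 downward and the neuron median ends at 0.30 on day 6.

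Patterning lists other than HOX moved in both directions, and their counts stand against 20.0% of all genes that rose and 21.9% that fell under all-trans retinoic acid and 16.4% and 22% under isotretinoin. Of 13 hindbrain segment genes 2 rose and 8 fell under each compound. Of 17 tested forebrain factors (22 listed) 0 rose and 4 fell under each, a share of falls near that of all genes. Of 13 tested midbrain and isthmus genes (14 listed) 6 rose and 3 fell under all-trans retinoic acid and 8 rose and 4 fell under isotretinoin. Of 8 tested motor neuron genes (11 listed) 3 rose and 1 fell under all-trans retinoic acid and 3 rose and 0 fell under isotretinoin. Of 18 tested spinal and hindbrain interneuron factors (23 listed) 5 rose and 9 fell under all-trans retinoic acid and 5 rose and 10 fell under isotretinoin. Of 12 tested spinal progenitor domain genes (15 listed) 1 rose and 6 fell under all-trans retinoic acid and 3 rose and 7 fell under isotretinoin. OLIG2, the factor of the motor neuron domain, fell by 2.35 ± 0.10 and 2.21 ± 0.12. GBX2, a factor of the midbrain and hindbrain border, was lower on days 1 to 4, at 43 and 64 TPM on day 3 against 98.3 to 127 TPM (median 114), and within the non-toxic range on day 6. ZIC2, a zinc finger factor of the dorsal neural tube, was at 37.5 and 44.9 TPM on day 6 against 68.3 to 82.7 TPM (median 78.9). Among 13 genes of FGF and ERK signalling, which opposes retinoic acid in the embryo, 3 rose and 7 fell under all-trans retinoic acid and 4 rose and 8 fell under isotretinoin, a share of rises near the 20.0% and above the 16.4% of all genes and a share of falls above the 21.9% and 22%. The phosphatase DUSP6 rose by 2.10 ± 0.15 and 1.77 ± 0.14, reaching 19 and 16.4 TPM on day 6 against 1.93 to 3.49 TPM (median 2.56). The feedback inhibitor SPRY4 fell, to 0.69 and 0.64 TPM on day 6 against 4.02 to 7.1 TPM (median 4.75). The receptor FGFR3 fell by 1.12 ± 0.05 and 0.92 ± 0.05. Of 7 glutamatergic genes 1 rose and 5 fell under each compound, and of 10 GABAergic genes 5 rose and 3 fell under all-trans retinoic acid and 3 rose and 3 fell under isotretinoin. SST, the peptide of a class of inhibitory neurons, was listed at 0 in both retinoid libraries of day 1 and at 13.2 and 34.1 TPM on day 6 against 0 to 3.15 TPM (median 0).

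Marker lists of the labelled and of other cell types were summed per library. Neural progenitor markers were present in every retinoid library, with summed levels of 2904 to 5331 TPM against 4328 to 6739 TPM in the non-toxic libraries, and neuron markers at 2667 to 8262 TPM against 3283 to 8236 TPM. Neural crest markers summed to 372.5 to 490.7 TPM against 624.1 to 972.1 TPM. The list held TFAP2A and TFAP2B, border and crest factors, lower by 2.58 and 2.10 under all-trans retinoic acid. The median levels of the defining crest genes SOX10 and ERBB3 were under 1 TPM. SOX10 was at 21.7 and 8.85 TPM on day 6 against 0 to 0.45 TPM (median 0.37). Endoderm markers summed to 104.6 to 221.3 TPM against 275.8 to 388.6 TPM. Of the 10 genes 9 had a median under 1 TPM, and CXCR4, which neural cells also express, made up most of the sum. Mesenchyme markers spanned 426.5 to 2262 TPM against 596.9 to 2723 TPM, epithelial markers 11.53 to 20.03 TPM against 6.44 to 20.45 TPM, and pluripotency markers 98.8 to 129 TPM against 103.9 to 127 TPM. These ranges pool the days, so their overlap does not describe a single day. By day, 1 of the 10 mesenchyme markers rose and 3 fell on day 1, and 0 rose and 5 fell on day 2 (median -0.60). On day 3 there were 8 that rose and 1 that fell (median 0.61). Then 2 rose and 2 fell on day 4, and 3 rose and 4 fell on day 6. The shares of all genes that rose and fell were 10.3% and 18.9% on day 1, 14% and 14% on day 2 and 14.4% and 17.2% on day 3. They were 17.5% and 21.3% on day 4 and 19.8% and 18.5% on day 6. The part of these cell types in the results was not tested.

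For the stereoisomers, 1 pair was compared, library by library on the same day at near-equal molar dose. No gene passed in the average over the 5 days (0 of 16318, 0%, by limma; 1780 had an unadjusted p under 0.05), in a design with 5 libraries a side. A miss of this kind does not show that the isomers act alike, and the 95% intervals give the bounds: they were narrower than 1 for 15067 genes. RARB was 1.47 times as high under all-trans retinoic acid as under isotretinoin on day 1 and 1.35 times on day 6, an average difference of 0.34 (95% interval 0.19 to 0.49). DHRS3 differed by 0.24 (95% interval 0.15 to 0.33), and in both genes the all-trans library was the higher on all 5 days. CYP26B1 differed by 0.61 (95% interval 0.41 to 0.81), and its ratio was 1.31 on day 1 and 1.83 on day 6. CYP26C1, which falls under retinoids, differed by -0.56 (95% interval -0.80 to -0.31), lower under all-trans retinoic acid. CFI, at 0.63 (95% interval 0.44 to 0.83), and PRDM12, at 0.76 (95% interval 0.47 to 1.05), were higher under all-trans retinoic acid on all 5 days. MEIS2, at 0.17 (95% interval -0.02 to 0.36), PROX1, at 0.12 (95% interval -0.02 to 0.27), and NOS1, at 0.07 (95% interval -0.17 to 0.31), had intervals that held 0. Adjusted p-values of these genes lay between 0.15 and 0.83.

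Where the libraries of both compounds together differed from the non-toxic ones from day 1 on, the all-trans library was the more extreme in many genes. The 89 higher genes had a median difference of 2.29 from the non-toxic libraries under all-trans retinoic acid and 1.99 under isotretinoin, and a median isomer difference of 0.26 against 0.01 over all tested genes. The all-trans library was above the isotretinoin library on all 5 days in 45 of them (50.6%), compared with 974 of 16318 genes (5.97%). Of the 54 lower genes, isotretinoin was above all-trans retinoic acid on all 5 days in 19 (35.2%), compared with 1189 (7.29%) of all genes. These shares describe 10 libraries and carry no test. The gap was widest on day 1 in 6 of 8 HOXB genes. The ratio of all-trans to isotretinoin was 1.89 for HOXB5, 1.95 for HOXB8, 2.65 for HOXB6, 2.16 for HOXB3, 4.12 for HOXB7 and 3.62 for HOXB9 on day 1, and 0.916, 1.03, 0.90, 1.09, 1.02 and 1.43 on day 6. HOXB2 and HOXB4 had their widest gap on day 2, with ratios of 1.28 and 1.21 on day 1, 1.38 and 1.41 on day 2 and 1.15 and 1.02 on day 6. Over 8 HOXB genes the median isomer difference went from 0.98 on day 1 to 0.03 on day 6. A trend of the isomer difference over days passed in no gene by limma (0 of 16318, smallest adjusted p = 0.73, 1093 at an unadjusted p under 0.05), so the narrowing is a description of these libraries.

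When the spread was taken from all 89 libraries in 1 fit, in which the lone library of each compound and day is assumed to vary like the non-toxic ones, 300 genes were higher (1.84%) and 275 lower (1.69%) under all-trans retinoic acid. SULF1, a sulfatase that trims heparan sulfate and so alters growth factor binding, had the largest difference, at 7.06, 14.5, 36.5, 17.6 and 8.88 TPM on days 1, 2, 3, 4 and 6 under all-trans retinoic acid. It was at 3.47, 4.06, 8.06, 4.38 and 2.02 TPM under isotretinoin, a difference of 1.60. HOXB9 (0.94), IGFBP6, a binding protein of insulin-like growth factors (1.05), and CAV1, the caveolar coat protein (0.89), were also higher. Markers of mesenchyme moved with this difference: all 10 were higher under all-trans retinoic acid on average (median 0.31), and ACTA2, COL1A1, COL3A1, LUM and TAGLN, 5 of the 10, passed in the fit of 89 libraries. Their summed level was 2262.5, 990.7, 1450.4, 762.6 and 642.1 TPM under all-trans retinoic acid on days 1, 2, 3, 4 and 6 and 2193.6, 885.4, 1179.7, 520.9 and 426.4 TPM under isotretinoin, higher under all-trans on each day. Of the 13 neural progenitor genes, 8 passed as lower under all-trans retinoic acid in that fit and 0 as higher. The part of other cell types in the isomer difference was not tested. OLIG3 (-0.88), TAC3, a neuropeptide precursor (-0.76), LMO1 (-0.72) and TFAP2A (-0.69) were lower. In the comparison of the 10 libraries alone, the adjusted p of SULF1 was 0.145.

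**Figure D5:**
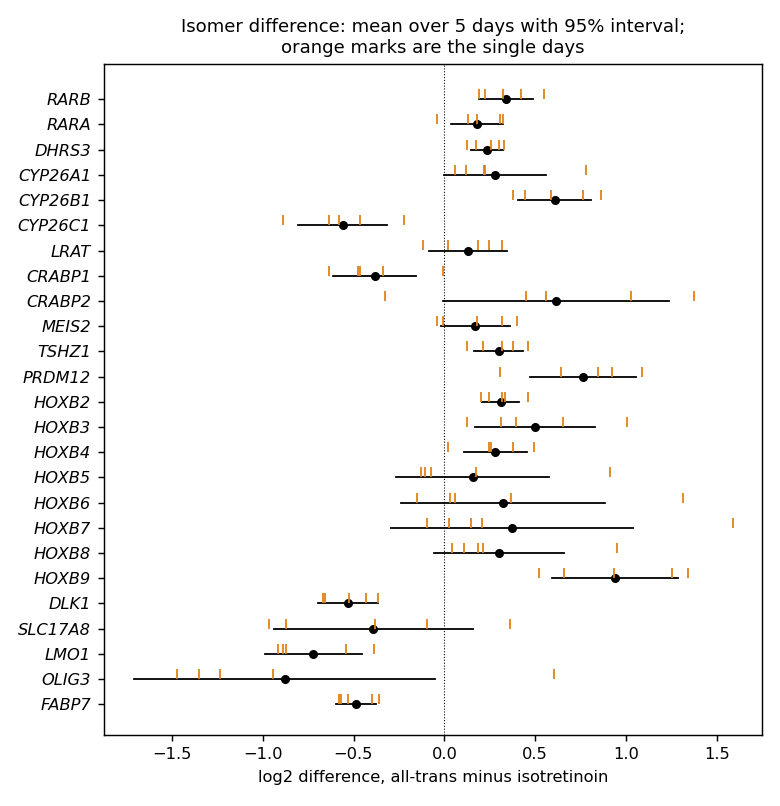
Difference between the all-trans and the isotretinoin libraries, log2(TPM + 1), for 25 genes (y axis), with the mean over 5 days as a point, its 95% interval as a bar and the single days as orange ticks. RARB, DHRS3 and CYP26B1 lie right of 0 with intervals that leave it, CYP26C1 lies left of it, and no gene passed after adjustment.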

How the data were processed

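RNA from H1-NPC cells lysed on the plate was taken up with a Qiagen RNeasy 96 kit and made into TruSeq RNA v2 libraries, per the labels' protocols. CASAVA 1.8.2, Bowtie 0.12.8 and RSEM 1.2.1 with the build hg19 are named in the submitters' processing notes. The values used are the TPM per gene that the authors deposited. Columns summed to between 999999.07 and 1000001.05, and 0 pairs of libraries were identical.

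A filter kept 16318 of 19084 genes, those reaching 1 TPM in 5 or more of the 414 libraries. Differences were fitted with limma 3.58.1 (its trend option on) in R 4.3.3, with files read by data.table (version 1.17.8). The response was log2(TPM + 1) and day a factor. P-values were Benjamini-Hochberg adjusted over all kept genes and called when under 0.05. The direct comparison of the isomers used the 10 retinoid libraries with day as a block, and the fits per day used both retinoids as the libraries of a day. The scripts were tested on simulated data.

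Genes were named by rules written with the design: for each compound the 10 largest rises and falls, for each onset day the 8 largest rises and 5 largest falls, for the change over days the 5 largest each way, and members of the written gene lists; not all are named, and some list members are not reported here. The members and lists were chosen with earlier results of these data known. Alternatives were DMSO as the only control, no day term, 1 retinoid at a time, centred libraries, another pseudocount, other onset thresholds, other filters and leaving out each day's library.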

Additional observations from a re-analysis of the deposited data

Results flagged for a closer look

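The following genes differed from the non-toxic libraries in opposite directions on days 1 and 6, with both retinoid libraries outside the non-toxic range on either day, and the change of the difference between the days passed in limma. In all, 932 genes passed on both days with opposite signs, 358 from higher to lower and 574 from lower to higher, and 6 did so with a large difference on both days.

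PRPH, the intermediate filament peripherin of peripheral and motor neurons, stood at 0.52 and 0.76 TPM under all-trans retinoic acid and isotretinoin on day 1 against 1.18 to 4.76 TPM (median 3.37), and at 33.8 and 37.4 TPM on day 6 against 4.08 to 13.7 TPM (median 10.0), a change of 3.19 (adjusted p = 7.8e-14). WSCD2, a membrane protein with a sulfotransferase domain, went from 1.94 and 3.2 TPM against 5.21 to 7.8 TPM (median 6.38) to 9.43 and 12 TPM against 1.9 to 3.67 TPM (median 2.83), a change of 2.70 (adjusted p = 2.9e-22). SAMD11, a transcriptional regulator, went from 1.84 and 2.72 TPM against 3.5 to 7.03 TPM (median 6.07) to 12.5 and 10.3 TPM against 3.88 to 6.7 TPM (median 4.91), a change of 2.07 (adjusted p = 6.5e-14).

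In the other direction, MUSTN1, a small nuclear protein of muscle and skeleton, was at 188.3 and 176.2 TPM on day 1 against 75.1 to 96.5 TPM (median 86.1) and at 15.1 and 19.2 TPM on day 6 against 33.1 to 52.2 TPM (median 39.4), a change of -2.30 (adjusted p = 1.1e-20). CPS1, the first enzyme of the urea cycle, went from 32.2 and 27.1 TPM against 13 to 15.9 TPM (median 14.1) to 1.19 and 1.01 TPM against 2.22 to 4.73 TPM (median 3.23), a change of -2.03 (adjusted p = 1.0e-17). PCP4, a calmodulin regulator, went from 9.02 and 4.6 TPM against 0 to 3.08 TPM (median 0.71) to 9.74 and 27.1 TPM against 84.2 to 123 TPM (median 100.6), a change of -4.66 (adjusted p = 3.5e-11).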

How the results depend on the processing

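The reads behind the TPM are unknown and each compound had 1 library per day in 1 cell line, so an effect of a single well and of the compound cannot be told apart on any 1 day. Leaving out each day in turn left the isomer comparison at 0 to 0 genes each way. Under the alternatives, 0 of 880 values of the named genes changed direction. These genes were picked for their largest differences, and the direction of other genes was not checked. In the named genes 6 of 880 values fell short of the threshold: with DMSO as the only control HOXA5 under both compounds and OLIG3 and SIX2 under isotretinoin, and with either retinoid alone PHOSPHO2-KLHL23.

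With DMSO as the only control, 679 genes rose and 841 fell under all-trans retinoic acid and 582 and 755 under isotretinoin, with fewer libraries. Without day as the replicate block that pairs libraries, the counts were 1958 and 2063, and 1428 and 1846. For the isomers, 1 fit of 89 libraries gave 300 higher and 275 lower genes, and centred libraries 3 and 7. With isotretinoin alone, 961 rose and 1871 fell on day 1, 1308 and 1475 on day 2, 1396 and 1753 on day 3, 1676 rose on day 4, and 2031 changed upward from day 1 to day 6. Transient lower genes numbered 185 with all-trans retinoic acid alone.

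With an onset threshold of 0.5, higher and lower genes numbered 239 and 254 on day 1, 160 and 101 on day 2, 155 and 173 on day 3, 268 and 221 on day 4, 535 and 444 on day 6, and 390 and 598 as transient. With onset at 50 percent of the day 6 difference, 109 lower genes fell on day 1 and 80 on day 2, and 93 higher and 51 lower genes on day 6. A pseudocount of 0.1 gave 84 lower genes on day 1, 315 and 307 on day 6, and 198 and 349 transient ones. Apart from the threshold, the cause of these shifts was not tested.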

Other observations

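Signalling genes outside the retinoic acid pathway moved in both directions. The counts stand against 20.0% of all tested genes that rose and 21.9% that fell under all-trans retinoic acid, and 16.4% and 22% under isotretinoin. Of 11 genes of the BMP pathway, 5 rose and 5 fell under each compound, with medians of 0.13 and 0.16. BAMBI, a decoy receptor that blocks BMP signalling, was at 1.95 and 1.62 TPM under all-trans retinoic acid and isotretinoin on day 1 against 0 to 1.66 TPM (median 0.675) and at 13.3 and 12 TPM on day 6 against 0.29 to 2.6 TPM (median 1.48). The inhibitory SMAD6 stood at 22.2 and 21.2 TPM on day 6 against 1.32 to 5.46 TPM (median 3.49), and ID2, an inhibitor of basic helix-loop-helix factors, at 29.2 and 31 TPM against 128 to 164 TPM (median 147). ID2 fell on each of the 5 days, and the retinoid libraries lay outside the non-toxic range in all 3 genes on day 6.

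Of 15 WNT pathway genes, 6 rose and 6 fell under all-trans retinoic acid and 5 rose and 6 fell under isotretinoin. WNT4, a ligand of the dorsal neural tube, was at 7.28, 4.9, 9.33, 5.43 and 14.4 TPM on days 1, 2, 3, 4 and 6 under all-trans retinoic acid and 4.42, 3.88, 6.75, 4.68 and 7.95 TPM under isotretinoin and between 0.23 and 1.76 TPM in the non-toxic libraries, without overlap on any day (2.24 ± 0.12 and 1.79 ± 0.11). SFRP1, a secreted WNT antagonist, was at 8.65 and 11.1 TPM on day 6 against 1.48 to 2.67 TPM (median 2.03). Of 11 hedgehog pathway genes, 0 rose and 4 fell under each compound by limma. BOC, a coreceptor for hedgehog ligands, fell most, from 135 and 157 TPM on day 1 to 74.8 and 94.8 TPM on day 6 against 233 to 261 TPM (median 251) and 168 to 194 TPM (median 187).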
